A study of Mus musculus with 18 samples.

Results

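The genes described here are 32 genes of the p53 pathway. They are 31 genes described as transcriptional targets of the tumour suppressor p53, and Trp53, which encodes p53 itself. Whether each of them is a direct target in mouse fibroblasts was not tested. They were picked by symbol for their known place in the pathway, with no threshold on a measured value, but with earlier results of these data known. Each symbol stood on 1 row of the deposited count table, so that 32 of its 55536 genes are members, and all 32 were among the 16322 genes that passed the filter on low counts. RNA was sequenced from immortalised mouse embryonic fibroblasts of 3 genotypes: wild-type (WT), p65 knock-out (p65 KO, without the product of Rela, a subunit of NF-κB) and IKK beta knock-out (IKK2 KO, without the IκB kinase subunit encoded by Ikbkb). Cells of each line were untreated or received TNF (tumour necrosis factor alpha, 10 ng/ml) for 45 or 90 min, which made 9 groups of 2 libraries, called a and b here. Each genotype is represented by 1 line. How the lines were immortalised, and whether any of them is a clone, is not given in the sources used here, so a difference between genotypes and a difference between the histories of the lines cannot be told apart. The labels do not say that the 2 libraries of a group came from separate cultures, and p-values therefore reflect the spread between these libraries alone, which could be technical.

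p53 is a transcription factor that binds paired decamer sequences near genes that stop the cell cycle, start apoptosis, repair DNA or adjust metabolism. The p53 protein is held low by Mdm2, a ubiquitin ligase whose own gene is a p53 target, which closes a negative feedback loop. In fibroblasts the pathway is best known for arrest and senescence after DNA damage, largely through Cdkn1a, the gene of the cyclin-dependent kinase inhibitor p21. TNF acts on fibroblasts mainly through IKK2 and the p65 subunit of NF-κB, and through MAP kinases. Several p53 targets, among them Fas, are also known to respond to NF-κB or to MAP kinases. p53 protein, its activity and its coding sequence were not measured here.

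The stretches upstream of the transcription start show where decamers of the p53 kind lie next to some of the genes described here. RefSeq promoter windows (build GRCm38.p6, 300 bases each) were matched by symbol for 23 of the 32 members, with 30 windows in all. The p53 decamer, searched on both strands, lay in 10 of these 30 windows (33.3%), beside 2745 of 32851 windows of the whole table (8.36%). These members were picked as p53 targets, so that share is a description. A pair of decamers 0 to 13 bases apart lay in 1 member window, that of Cdkn1a, and in 24 of all windows (0.0731%). The κB decamer, the sequence class bound by NF-κB, lay in 2 member windows (6.67%), 1 of Bbc3 and 1 of Trp53, beside 1480 of all windows (4.51%). No decamer of either kind lay in the windows of Fas, Plk2, Eda2r, Ephx1, Sesn2, Phlda3, Plk3, Dcxr, Apaf1, Ercc5, Ptpn14, Tigar and Gdf15. The 250 bases upstream of the start follow for Cdkn1a, Mdm2, Ccng1, Trp53 and Bbc3, 5′ to 3′ along the strand of the gene. Capitals mark p53 decamers in Cdkn1a, Mdm2 and Ccng1, and overlapping κB decamers in Bbc3. In Trp53 the first capitals are a p53 decamer, and the last 5 bases are the upstream part of a κB decamer that spans the start.
Cdkn1a (chr17:29090729-29090978, + strand): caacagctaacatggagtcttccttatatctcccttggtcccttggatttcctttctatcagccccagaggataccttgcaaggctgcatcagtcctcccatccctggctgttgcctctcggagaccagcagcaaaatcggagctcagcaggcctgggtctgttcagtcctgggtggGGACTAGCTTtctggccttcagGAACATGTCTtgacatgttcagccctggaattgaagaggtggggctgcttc
Mdm2 (chr10:117710759-117711008, - strand): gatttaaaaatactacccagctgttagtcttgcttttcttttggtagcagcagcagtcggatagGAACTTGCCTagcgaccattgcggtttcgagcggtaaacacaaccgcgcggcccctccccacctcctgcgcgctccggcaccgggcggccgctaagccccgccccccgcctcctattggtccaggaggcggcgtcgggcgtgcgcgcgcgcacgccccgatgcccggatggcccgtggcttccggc
Ccng1 (chr11:40755287-40755536, - strand): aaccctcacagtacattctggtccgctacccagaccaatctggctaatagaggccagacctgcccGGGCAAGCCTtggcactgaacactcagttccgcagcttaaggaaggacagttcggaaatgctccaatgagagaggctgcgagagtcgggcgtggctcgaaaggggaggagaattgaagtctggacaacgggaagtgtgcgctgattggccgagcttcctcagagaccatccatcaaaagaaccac
Trp53 (chr11:69580109-69580358, + strand): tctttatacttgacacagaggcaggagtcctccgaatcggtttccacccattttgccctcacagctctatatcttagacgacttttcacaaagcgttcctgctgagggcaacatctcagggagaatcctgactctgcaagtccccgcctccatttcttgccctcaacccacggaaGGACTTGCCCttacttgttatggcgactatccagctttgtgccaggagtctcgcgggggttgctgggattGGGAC
Bbc3 (chr7:16309333-16309582, + strand): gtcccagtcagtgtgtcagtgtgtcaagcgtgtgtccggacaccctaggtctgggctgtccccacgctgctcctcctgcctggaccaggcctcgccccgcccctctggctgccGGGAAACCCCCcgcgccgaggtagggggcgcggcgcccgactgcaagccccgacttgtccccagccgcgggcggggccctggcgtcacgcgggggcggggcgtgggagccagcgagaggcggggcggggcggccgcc
In Cdkn1a the decamers GGACTAGCTT and GAACATGTCT began 73 and 51 bases upstream of the start used for the window shown. Another Cdkn1a window (chr17:29093519-29093818) held no decamer of either kind. In Mdm2 the decamer GAACTTGCCT began 186 bases upstream, in Ccng1 GGGCAAGCCT began 185 bases upstream, and in Trp53 GGACTTGCCC began 75 bases upstream. In Bbc3 the κB decamer GGGAAACCCC began 137 bases upstream in the window shown. The Bbc3 windows at chr7:16310011-16310310 and chr7:16310181-16310480 held no decamer of either kind. A match is not a shown binding site, and elements farther away, such as those in introns, lie outside these windows.

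The libraries held 16.7 to 23.5 M counts, with a count for 20146 to 21848 genes each. Levels are given as CPM (counts scaled to library size), and changes as log2 changes ± standard error with Benjamini-Hochberg adjusted p-values from the quasi-likelihood test of edgeR, fitted over 16322 genes. A gene is called changed at an adjusted p under 0.05. Rela stood at 63.8 CPM in untreated WT and at 5.68 CPM in p65 KO, with 69.7 CPM in IKK2 KO, so Rela was low in the line labelled p65 KO. Ikbkb stood at 59.9, 42.7 and 43.4 CPM, so counts over the whole gene do not check the IKK2 KO label. The NF-κB target Nfkbia rose from 15.4 to 372 CPM at 45 min in WT, from 33.3 to 54.8 CPM in p65 KO, and from 41.4 to 186 CPM in IKK2 KO. Summed over 10 fibroblast markers, the libraries held 11001 to 11376 CPM in WT, 4603 to 4748 CPM in p65 KO, with 11003 to 11434 CPM in IKK2 KO. Fn1 and Vim made up most of these sums, so the sums do not stand for each marker. Of 9 markers tested, 1 was higher, 7 lower and 1 not called in untreated p65 KO against WT. In IKK2 KO 7 were higher and 2 lower. Over all genes 39.8% were higher and 41.1% lower in p65 KO, and 35.9% and 38.4% in IKK2 KO. Pdgfra had 428 and 368 counts in untreated WT, and 1524 and 1335 in untreated p65 KO. The marker Fap was at 0 in WT and p65 KO, and Thy1 was at 0.0495 CPM or less in the libraries of those lines but at 25.4 to 30.1 CPM in IKK2 KO. Epithelial (6 genes) and endothelial (5 genes) markers summed to at most 3.23 and 1.21 CPM in any library, and both sums were highest in IKK2 KO. Myeloid markers (6 genes) summed to 1.18 to 2.23 CPM, with Adgre1 at 0 throughout. The part of these line differences in the results below was not tested.

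Most p53 targets stood lower in both untreated knock-out lines than in untreated WT, while Trp53 itself stood higher. In p65 KO 27 members were lower and 5 higher, and in IKK2 KO 24 were lower, 5 higher and 3 not called. The lines differed in most genes: over all genes tested, 39.8% were higher and 41.1% lower in p65 KO than in WT, and 35.9% and 38.4% in IKK2 KO. The median log2 change of the 32 members was −1.22 in p65 KO and −1.24 in IKK2 KO, beside −0.02 and −0.03 over all genes tested. At least 2-fold lower were 19 members in p65 KO, where 23.1% of all genes reached that, and 19 in IKK2 KO, where 17.6% did. At least 4-fold lower were 13 members in p65 KO (12.4% of all genes) and 11 in IKK2 KO (8.31%). All these counts of lower members include Fas and Gdf15, which passed the filter on low counts through WT alone and could only come out lower. Both comparisons use the same untreated WT libraries, so their values stand side by side and are not independent of each other. In bulk samples fewer cells that express a gene and less RNA per cell cannot be told apart.

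Trp53 (ENSMUSG00000059552, GRCm38 chromosome 11, 69580359 to 69591873) was at 106 and 105 CPM in the untreated WT libraries, 166 and 164 CPM in p65 KO and 182 and 184 CPM in IKK2 KO. The 3 lines did not overlap, and each step in that order passed the test. The log2 change was 0.65 ± 0.03 in p65 KO (adjusted p = 4.32e-23), with 0.80 ± 0.03 in IKK2 KO (adjusted p = 8.74e-26), and IKK2 KO exceeded p65 KO by 0.15 ± 0.03 (adjusted p = 1.34e-05). Mdm2 (ENSMUSG00000020184, chromosome 10, 117688875 to 117710758), the inhibitor, was at 207 and 215 CPM in WT, 35.2 and 36.1 CPM in p65 KO and 65.5 and 62.9 CPM in IKK2 KO. Mdm2 was thus highest in the line where Trp53 RNA was lowest. Its log2 change was −2.56 ± 0.04 in p65 KO (adjusted p = 6.88e-42), with −1.71 ± 0.04 in IKK2 KO (adjusted p = 7.17e-36).

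**Figure D1:**
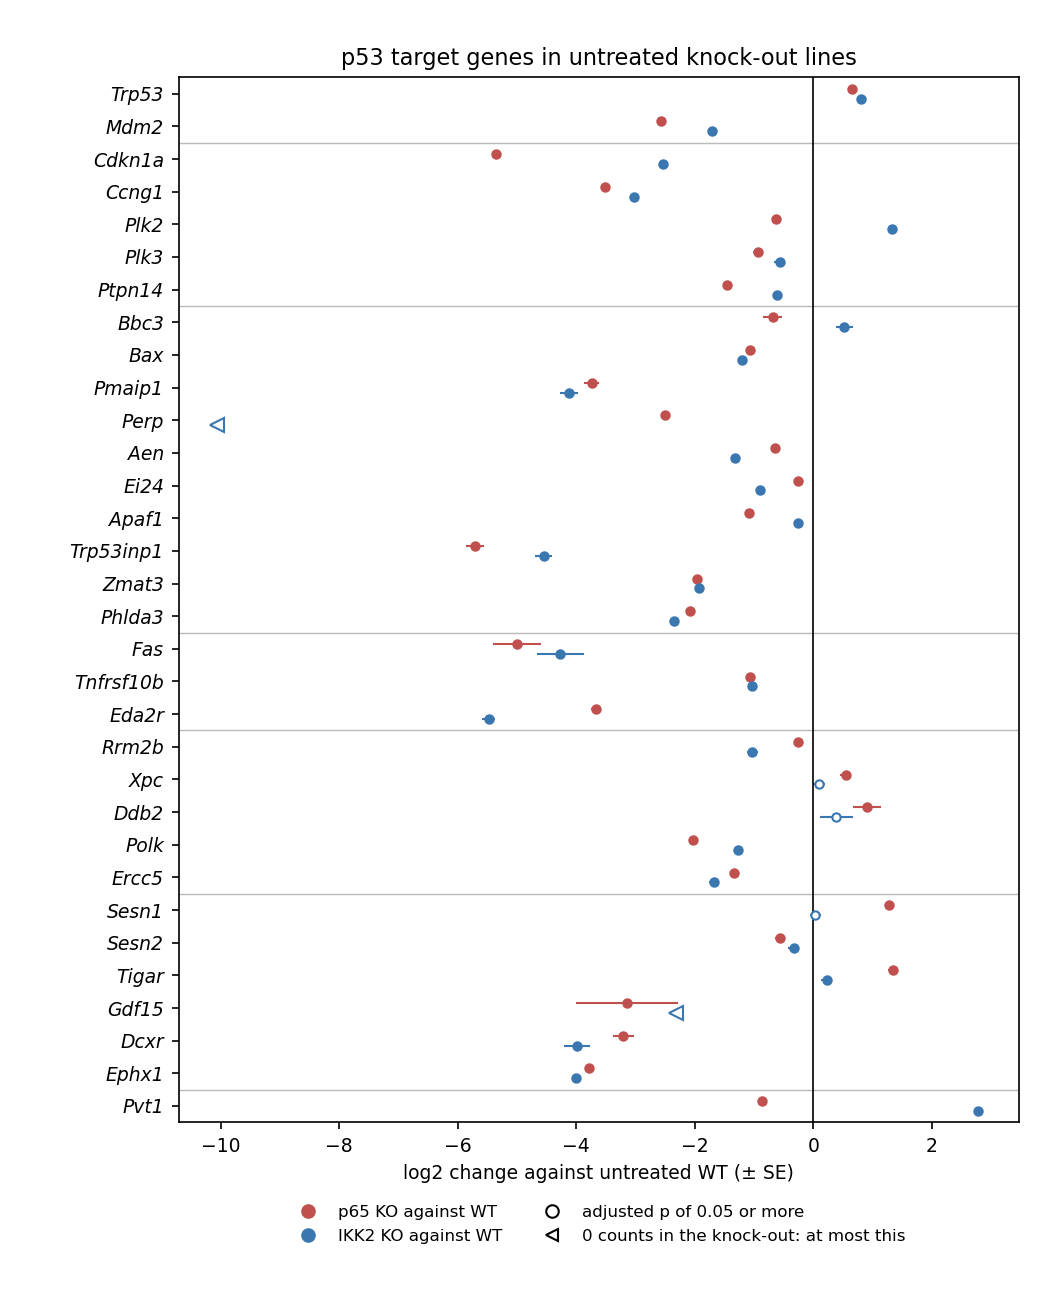
Log2 change of each of the 32 genes in untreated p65 KO (red) and IKK2 KO (blue) against untreated WT, with standard errors from edgeR, grouped by role from Trp53 and Mdm2 at the top to Pvt1 at the bottom. Filled points passed an adjusted p of 0.05, open circles did not, and triangles are upper bounds for genes with 0 counts in IKK2 KO. Most points lie left of 0, from −0.25 to −5.71 among those lower in p65 KO. Trp53 and Tigar lie right of it in both lines, and so do Sesn1, Xpc and Ddb2, which were not called in IKK2 KO.

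Among the genes of cell cycle arrest, Cdkn1a had the largest log2 change in p65 KO and Ccng1 in IKK2 KO. Cdkn1a (ENSMUSG00000023067, chromosome 17, 29090976 to 29100727) was at 191 and 188 CPM in WT, 5.07 and 4.11 CPM in p65 KO and 33.3 and 31.9 CPM in IKK2 KO. No 2 lines overlapped. The log2 change was −5.36 ± 0.06 in p65 KO (adjusted p = 3.69e-46), with −2.54 ± 0.04 in IKK2 KO (adjusted p = 7.12e-39), and IKK2 KO stood 2.82 ± 0.09 above p65 KO (adjusted p = 5.56e-29). Ccng1, the gene of cyclin G1, was at 514 CPM in both WT libraries, 44.8 and 45.1 CPM in p65 KO and 62.7 and 63.1 CPM in IKK2 KO, with log2 changes of −3.52 ± 0.03 and −3.03 ± 0.03. Ptpn14, a tyrosine phosphatase gene, was lower by smaller amounts (−1.46 in p65 KO and −0.61 in IKK2 KO), and so was the polo-like kinase gene Plk3 (−0.93 and −0.57). Plk2, a polo-like kinase gene of the early cell cycle (ENSMUSG00000021701, chromosome 13, 110395046 to 110400844), went apart from the others. It was at 220.2 and 201 CPM in WT, 137 and 135 CPM in p65 KO and 528 and 535 CPM in IKK2 KO. Plk2 was thus lower than WT in p65 KO (−0.63 ± 0.03) and higher in IKK2 KO (1.33 ± 0.03, adjusted p = 1.29e-34).

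The apoptosis genes held both large and small differences. Trp53inp1, which encodes a nuclear stress protein, was at 26.2 and 26.9 CPM in WT, 0.415 and 0.593 CPM in p65 KO and 1.18 and 1.08 CPM in IKK2 KO. Its log2 change of −5.71 ± 0.15 in p65 KO was the largest of any member there (adjusted p = 2.06e-32), and in IKK2 KO it was −4.55 ± 0.14. Pmaip1, the gene of the BH3-only protein Noxa, was at 26.1 and 27.1 CPM in WT, 1.83 and 2.15 CPM in p65 KO and 1.73 and 1.31 CPM in IKK2 KO (−3.74 ± 0.13 and −4.13 ± 0.15). The knock-out lines were apart from WT in both genes, and in Pmaip1 they were not called different from each other (−0.39 ± 0.27). Perp, which encodes a membrane protein of desmosomes and apoptosis, was at 98.9 and 92.0 CPM in WT and 17.1 and 16.7 CPM in p65 KO (−2.50 ± 0.06). It had 0 counts in both untreated IKK2 KO libraries, which allows up to 0.0890 CPM, and was at least 1072-fold lower there than in WT and at least 190-fold lower than in p65 KO. Zmat3, an RNA-binding protein gene (−1.96 and −1.93 in p65 KO and IKK2 KO), and Phlda3, an inhibitor of Akt signalling (−2.08 and −2.35), were lower by similar amounts in both lines. The pore-forming Bax (−1.07 and −1.21), the caspase activator gene Apaf1 (−1.09 and −0.26), the nuclease gene Aen (−0.65 and −1.33) and Ei24 (−0.25 and −0.90) were also lower in both. Bbc3, the gene of the BH3-only protein Puma (ENSMUSG00000002083, chromosome 7, 16308393 to 16318205), was the exception. It was at 4.06 and 4.62 CPM in WT, 2.82 and 2.51 CPM in p65 KO (−0.69 ± 0.16) and 6.75 and 5.70 CPM in IKK2 KO (0.52 ± 0.14, adjusted p = 0.000868).

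All 3 receptor genes of the TNF receptor family were lower in both knock-out lines. Eda2r, which encodes the receptor of ectodysplasin A2, was at 60.6 and 58.8 CPM in WT, 4.53 and 4.88 CPM in p65 KO and 1.18 and 1.48 CPM in IKK2 KO. Its log2 change was −3.67 ± 0.08 in p65 KO and −5.48 ± 0.11 in IKK2 KO (adjusted p = 5.42e-36), and the step between the knock-out lines was −1.81 ± 0.21. The death receptor gene Fas (ENSMUSG00000024778, chromosome 19, 34290666 to 34327772) was at 3.08 and 2.84 CPM in WT, 0.0831 and 0.0913 CPM in p65 KO and 0 and 0.285 CPM in IKK2 KO. These levels stood for 75 and 56 counts in WT, 2 and 2 in p65 KO, and 0 and 5 in IKK2 KO, so Fas had to differ to pass the filter. Tnfrsf10b, the gene of the TRAIL death receptor, was lower by near-equal amounts, with log2 changes of −1.07 ± 0.04 in p65 KO and −1.03 ± 0.05 in IKK2 KO.

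DNA repair genes showed mixed differences. Polk, a translesion polymerase gene, was at 52.8 and 55.5 CPM in WT, 13.999 and 12.6 CPM in p65 KO and 23.4 and 21.6 CPM in IKK2 KO (−2.02 ± 0.06 and −1.27 ± 0.06). Ercc5, an endonuclease gene of nucleotide excision repair, was lower in both lines (−1.35 ± 0.07 and −1.68 ± 0.08). Rrm2b, the p53-induced subunit of ribonucleotide reductase, was lower in IKK2 KO (−1.03 ± 0.09). In p65 KO its difference was −0.25 ± 0.07, a call lost without the untreated p65 KO library a. The damage recognition genes Xpc (0.55 ± 0.09) and Ddb2 (0.91 ± 0.24) were higher in p65 KO and not called in IKK2 KO (0.10 ± 0.11 and 0.39 ± 0.28). Ddb2 was low, at 1.27 to 2.70 CPM in the 6 untreated libraries, and 23.8% of its exonic bases are shared with Acp2 on the opposite strand.

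Genes of metabolic and secreted products ranged widely. Ephx1, the microsomal epoxide hydrolase gene, was at 132 and 129 CPM in WT, 9.31 and 9.72 CPM in p65 KO and 8.605 and 7.70 CPM in IKK2 KO. The log2 change was −3.78 ± 0.06 in p65 KO (adjusted p = 4.31e-41), with −4.01 ± 0.06 in IKK2 KO (adjusted p = 6.2e-40), and the knock-out lines were not called different from each other. Dcxr, a carbonyl reductase gene, was also lower in both (−3.21 ± 0.17 and −3.98 ± 0.22). The stress cytokine gene Gdf15 was scarce, with 8 and 11 counts in the WT libraries, 2 and 0 in p65 KO and 0 and 0 in IKK2 KO, and it passed the filter through WT alone. Sesn1, a sestrin gene that restrains mTORC1, went the other way, at 14.8 and 13.7 CPM in WT, 36.6 and 32.4 CPM in p65 KO (1.28 ± 0.07, adjusted p = 1.41e-19) and 15.9 and 13.5 CPM in IKK2 KO (0.03 ± 0.10). Its relative Sesn2 was lower in both lines (−0.56 ± 0.09 and −0.33 ± 0.10). Tigar, a glycolysis regulator gene, was at 10.1 and 10.8 CPM in WT, 27.0 and 25.5 CPM in p65 KO (1.34 ± 0.07, adjusted p = 2.85e-20) and 12.1 and 12.3 CPM in IKK2 KO (0.23 ± 0.09). The small Tigar call in IKK2 KO was lost in DESeq2's Wald test and without untreated WT library a or either untreated IKK2 KO library. The non-coding RNA gene Pvt1, a neighbour of Myc, was at 36.5 and 38.3 CPM in WT, 19.2 and 21.8 CPM in p65 KO and 253 and 258 CPM in IKK2 KO. That was −0.87 ± 0.07 in p65 KO and 2.77 ± 0.04 in IKK2 KO (adjusted p = 3.41e-40), with no overlap between lines.

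**Figure D2:**
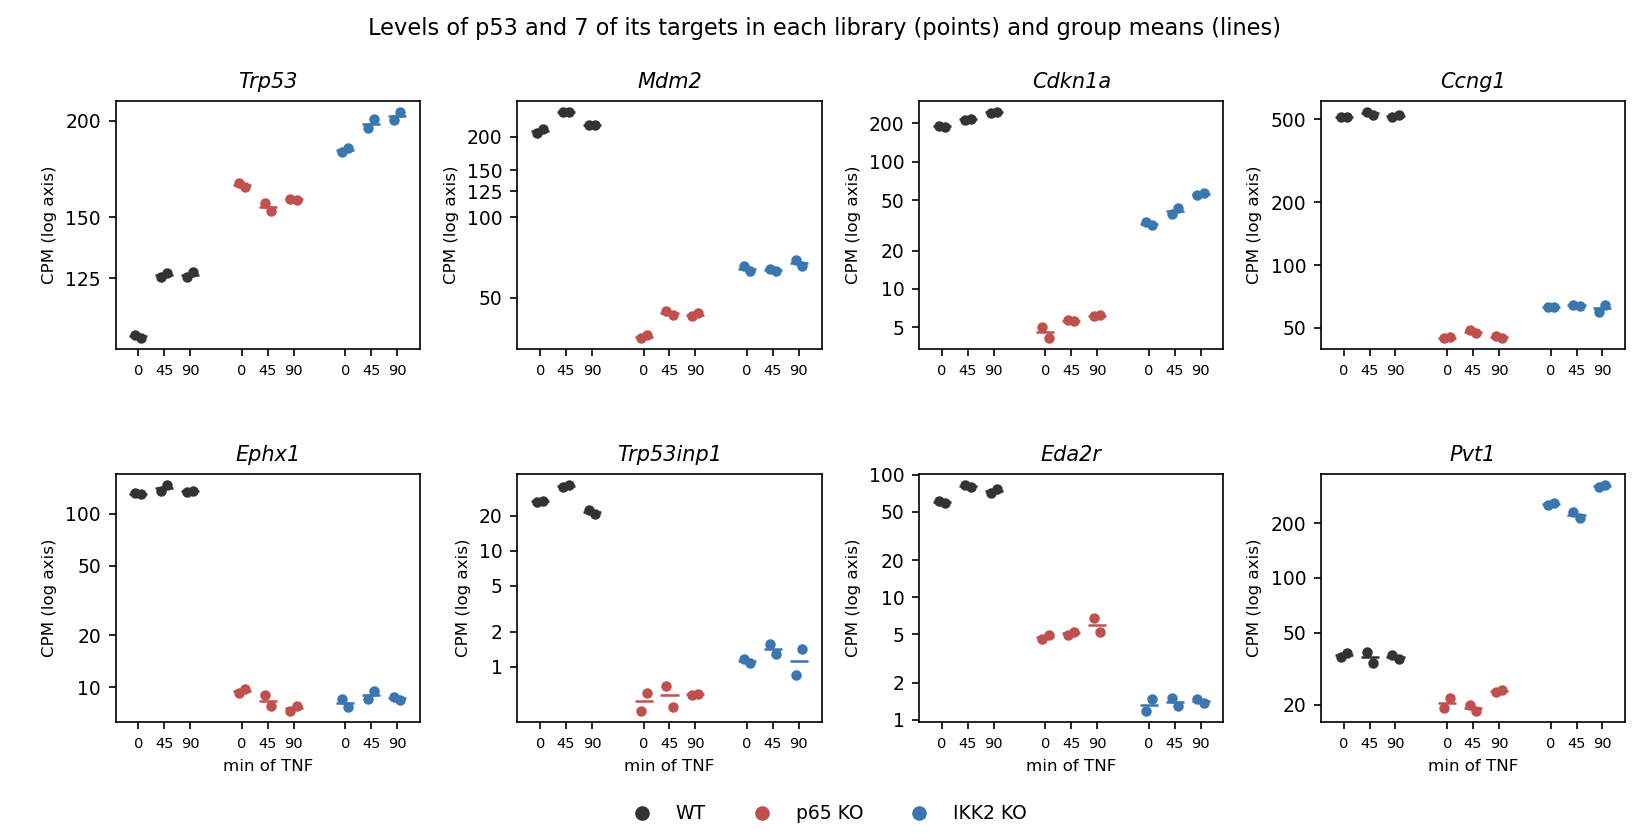
CPM on a log axis of Trp53 and 7 targets in each of the 18 libraries, by line (WT black, p65 KO red, IKK2 KO blue) and minutes of TNF, with points for libraries and short lines for group means. Trp53 is lowest in untreated WT (106 and 105 CPM), Mdm2, Cdkn1a, Ccng1, Ephx1, Trp53inp1 and Eda2r are higher in every WT library than in any knock-out library, and Pvt1 is highest in IKK2 KO.

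The knock-out lines also differed from each other. In untreated IKK2 KO 13 members were higher than in untreated p65 KO, 11 lower and 8 not called, beside 35.5% higher and 36.9% lower over all genes tested, shares close to those of the members. Pvt1 (3.64 ± 0.05), Cdkn1a (2.82 ± 0.09), Plk2 (1.97 ± 0.03), Bbc3 (1.21 ± 0.15), Mdm2 (0.85 ± 0.05) and Ptpn14 (0.85 ± 0.04) were higher in IKK2 KO. Eda2r (−1.81 ± 0.21), Sesn1 (−1.24 ± 0.08), Tigar (−1.11 ± 0.08) and Rrm2b (−0.78 ± 0.09) were lower there. The calls of Trp53inp1 (1.16 ± 0.35, lost without p65 KO library a), Phlda3 (−0.26 ± 0.08, lost without IKK2 KO library b), Ddb2 (−0.53 ± 0.24) and Sesn2 (0.23 ± 0.10) depended on the fit, and the last 2 were lost in DESeq2's Wald test and without either IKK2 KO library. Ddb2 was lost as well without either p65 KO library, and Sesn2 without p65 KO library b or without a filter.

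Scaled to exon length, the genes fell into another order. Ccng1 was the most abundant member in untreated WT at 146 CPM per kilobase, followed by Ephx1 at 67.0, Cdkn1a at 53.3, Perp at 48.9, Phlda3 at 48.1, Plk2 at 46.9 and Mdm2 at 41.5 CPM per kilobase. In untreated p65 KO Trp53 reached 40.8 CPM per kilobase, above Plk2 at 30.3, Bax at 16.2 and Ccng1 at 12.8. In untreated IKK2 KO Plk2 reached 118 CPM per kilobase, above Trp53 at 45.3 and Pvt1 at 36.5. Cdkn1a went from 53.3 CPM per kilobase in WT to 1.29 in p65 KO and 9.17 in IKK2 KO.

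In WT fibroblasts 15 of the 32 members rose with 45 min of TNF and 17 were not called, beside 5.73% of all genes that rose and 6.45% that fell. The genes that rose were Trp53 and Mdm2, 2 of 5 arrest genes, 3 of 10 apoptosis genes, 3 of 3 death and TNF-family receptor genes, 1 of 5 repair genes and 4 of 6 genes of metabolism and stress. The median log2 change of the members was 0.15, and that of all genes 0.01. Fas rose most, from 3.08 and 2.84 CPM to 16.5 and 15.8 CPM, a log2 change of 2.44 ± 0.12 (adjusted p = 3.98e-20). Plk2 rose from 220.2 and 201 CPM to 513 and 500.3 CPM (1.26 ± 0.03, adjusted p = 2.04e-32). Bbc3 rose from 4.06 and 4.62 CPM to 9.67 and 9.86 CPM (1.18 ± 0.12, adjusted p = 2.27e-10). In all 3 genes the treated libraries lay above the untreated ones by more than the spread within a group. Sesn2, a sestrin gene induced by several stresses, went from 14.2 and 15.3 CPM to 27.4 and 27.5 CPM (0.90 ± 0.08, adjusted p = 8.22e-13). Trp53inp1 went from 26.2 and 26.9 CPM to 35.6 and 36.7 CPM (0.45 ± 0.06), and Eda2r from 60.6 and 58.8 CPM to 82.6 and 79.2 CPM (0.43 ± 0.05).

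Smaller rises at 45 min in WT included p53 itself. Trp53 went from 106 and 105 CPM to 125.5 and 127 CPM (0.27 ± 0.03, adjusted p = 1.45e-08). Mdm2 went from 207 and 215 CPM to 248 and 247 CPM (0.23 ± 0.03, adjusted p = 1.19e-08), and Cdkn1a from 191 and 188 CPM to 212 and 218 CPM (0.18 ± 0.03, adjusted p = 1.48e-05). None of these groups overlapped. Tnfrsf10b rose by 0.19 ± 0.04. Ercc5 (0.18 ± 0.06), Sesn1 (0.26 ± 0.09), Dcxr (0.31 ± 0.10), Aen (0.12 ± 0.04) and Ephx1 (0.11 ± 0.04) were called with adjusted p-values between 0.0292 and 0.0477. Each of these 5 calls was lost in DESeq2's Wald test and when untreated WT library a or b or 45 min library b was left out. Ccng1, the most abundant target in WT, was not called (0.05 ± 0.03), nor were Perp (−0.01 ± 0.04), Zmat3 (0.04 ± 0.03), Bax (0.03 ± 0.05) and Phlda3 (−0.05 ± 0.04).

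By 90 min fewer members stood above untreated WT, with Fas and Cdkn1a among them. Against untreated cells 6 members were higher, 2 lower and 24 not called, beside 5.81% of all genes higher and 3.51% lower. Fas was at 13.9 and 12.6 CPM (2.15 ± 0.13, adjusted p = 1.69e-17). Cdkn1a reached 243 and 246 CPM, its highest level in any group (0.37 ± 0.03, adjusted p = 4.77e-13). Trp53 stayed at 126 and 127 CPM (0.27 ± 0.03), and Eda2r was at 71.4 and 76.2 CPM (0.31 ± 0.05). Tnfrsf10b was at 91.1 and 90.9 CPM (0.28 ± 0.04, adjusted p = 1.85e-07), above both untreated libraries at 75.6 and 74.4 CPM. Pmaip1 went from 26.1 and 27.1 CPM to 33.5 and 30.4 CPM (0.27 ± 0.07), a call that was lost in DESeq2's Wald test and without untreated library a or 90 min library a. Trp53inp1 was now below untreated, at 22.2 and 20.8 CPM (−0.30 ± 0.07, lost in DESeq2's Wald test and without 90 min library b), and so was Ptpn14 (−0.14 ± 0.03, lost without untreated library b). Mdm2 was not called at 90 min (0.08 ± 0.03, adjusted p = 0.0963).

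The direct comparison of 90 with 45 min in WT showed the return. Here 10 members fell, 1 rose and 21 were not called, beside 8.08% of all genes that rose and 6.22% that fell. Plk2 fell from 513 and 500.3 CPM to 211 CPM in both libraries (−1.26 ± 0.03, adjusted p = 3.53e-32), the level before TNF. Bbc3 fell to 4.82 and 5.69 CPM (−0.89 ± 0.12, adjusted p = 1.61e-07). Sesn2 fell to 15.8 and 14.8 CPM (−0.85 ± 0.08, adjusted p = 9.75e-12), and Trp53inp1 went beyond its start (−0.75 ± 0.07, adjusted p = 2.9e-12). Mdm2 (−0.16 ± 0.03) and Ptpn14 (−0.18 ± 0.03) fell slightly. Cdkn1a was the 1 member that rose further (0.18 ± 0.03, adjusted p = 1.04e-05), and Trp53 was level (−0.00 ± 0.03). The count of 11 calls was 7 without 45 min library b. Sesn1 (−0.39 ± 0.09) and Ercc5 (−0.27 ± 0.06) lost their calls without that library, Ercc5 also in DESeq2's Wald test. Fas (−0.29 ± 0.09) lost its call in DESeq2's Wald test and without either 45 min library or 90 min library b, and Eda2r (−0.13 ± 0.04) in DESeq2's Wald test, without a filter and without either 45 min library or 90 min library a.

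**Figure D3:**
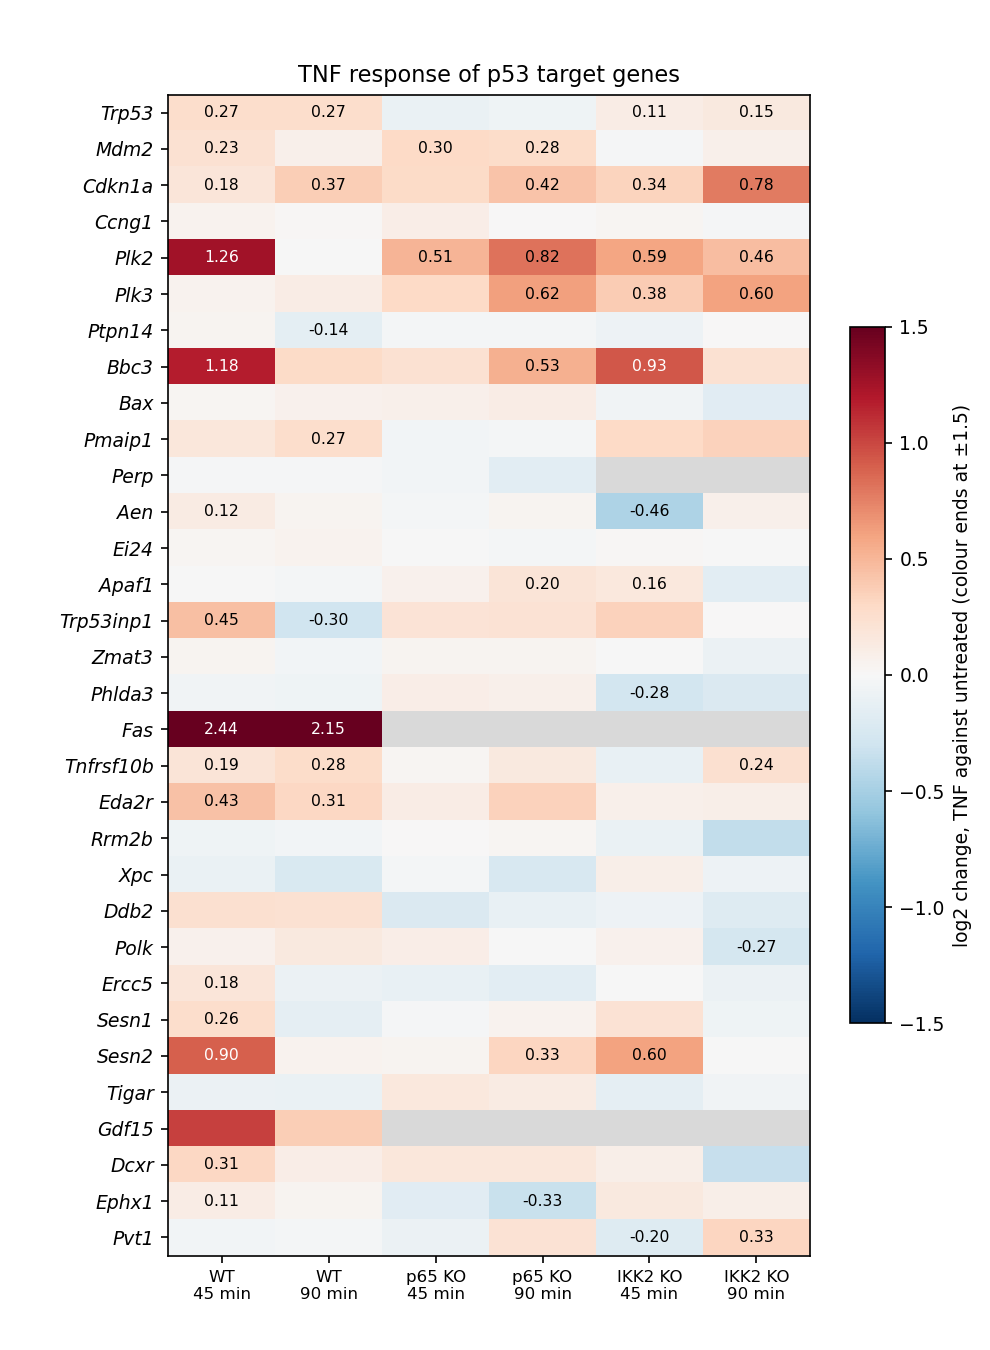
Log2 change against untreated cells of the same line for each of the 32 genes (rows) at 45 and 90 min of TNF in each line (columns), in red for higher and blue for lower, with the colour ending at ±1.5. Numbers are printed where edgeR's adjusted p was under 0.05, and grey marks genes with under 10 counts in both untreated libraries of that line. WT at 45 min has 15 printed values, led by Fas (2.44), Plk2 (1.26) and Bbc3 (1.18), while p65 KO at 45 min has 2.

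In p65 KO the members that rose at 45 min were Plk2 and Mdm2. These 2 passed the test and 30 were not called, beside 1.17% of all genes that rose and 0.49% that fell. Plk2 rose from 137 and 135 CPM to 196 and 192 CPM (0.51 ± 0.03, adjusted p = 2.49e-15). Mdm2 rose from 35.2 and 36.1 CPM to 44.5 and 43.0 CPM (0.30 ± 0.05, adjusted p = 6.18e-05). In neither gene did the treated libraries overlap the untreated ones, and both calls were kept in DESeq2's Wald test and without each of the 4 libraries in turn. Trp53 went from 166 and 164 CPM to 156 and 153 CPM (−0.10 ± 0.03, adjusted p = 0.0833). Cdkn1a went from 5.07 and 4.11 CPM to 5.68 and 5.58 CPM (0.29 ± 0.13, adjusted p = 0.331). Bbc3 (0.23 ± 0.17) and Sesn2 (0.04 ± 0.10), which rose in WT, were not called.

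At 90 min in p65 KO 7 members were higher, 1 lower and 24 not called, beside 4.06% of all genes higher and 2.42% lower. Plk2 went on to 241 and 239 CPM (0.82 ± 0.03, adjusted p = 2.85e-23), above both 45 min libraries. Plk3 rose from 10.3 and 10.0 CPM to 15.2 and 16.0 CPM (0.62 ± 0.09, adjusted p = 2.81e-06), and Mdm2 stood at 42.6 and 43.8 CPM (0.28 ± 0.05, adjusted p = 5.42e-05). The other 5 calls were not kept in every fit. Cdkn1a reached 6.14 and 6.22 CPM (0.42 ± 0.12, adjusted p = 0.0264), a call that was lost in DESeq2's Wald test and without untreated library b or either 90 min library. Bbc3 (0.53 ± 0.16), Sesn2 (0.33 ± 0.09) and Ephx1 (−0.33 ± 0.10) were each lost in DESeq2's Wald test and without each of the 4 libraries, and Apaf1 (0.20 ± 0.06) in DESeq2's Wald test and without library b of either group. The count of 8 calls was 3 in DESeq2's Wald test, 5 without untreated library a and 4 without each of the other 3 libraries.

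IKK2 KO responded at 45 min with 7 members higher, 3 lower and 22 not called, beside 3.33% of all genes higher and 5.43% lower. Bbc3 rose from 6.75 and 5.70 CPM to 12.3 and 11.3 CPM (0.93 ± 0.12, adjusted p = 4.98e-08). Sesn2 rose from 11.6 and 11.7 CPM to 16.4 and 19.1 CPM (0.60 ± 0.10, adjusted p = 8.31e-06), and Plk2 from 528 and 535 CPM to 810.05 and 793 CPM (0.59 ± 0.03, adjusted p = 2.53e-21). The highest Plk2 level of all 9 groups was in these 2 libraries. Cdkn1a rose from 33.3 and 31.9 CPM to 39.1 and 43.5 CPM (0.34 ± 0.06, adjusted p = 3.72e-05). Aen fell from 34.4 and 33.2 CPM to 24.4 and 24.6 CPM (−0.46 ± 0.07, adjusted p = 2.02e-06), and Pvt1 from 253 and 258 CPM to 230.4 and 215 CPM (−0.20 ± 0.03, adjusted p = 4.64e-05). Mdm2 was level at 64.2 and 62.9 CPM (−0.01 ± 0.04). Trp53 (0.11 ± 0.03) and Plk3 (0.38 ± 0.09) were called, but lost in DESeq2's Wald test and without untreated library a or 45 min library b. Apaf1 (0.16 ± 0.05) was lost in DESeq2's Wald test and without each library, and Phlda3 (−0.28 ± 0.09) with other size factors, in DESeq2's Wald test, without a filter, and without either untreated library or 45 min library a. The count of 10 calls was 6 in DESeq2's Wald test and 6 without untreated library a.

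At 90 min in IKK2 KO 6 members were higher, 1 lower and 25 not called, beside 3.36% of all genes higher and 1.12% lower. Cdkn1a reached 54.8 and 56.8 CPM (0.78 ± 0.05, adjusted p = 1.09e-14), above both its untreated and its 45 min libraries. Plk3 rose from 12.9 and 13.3 CPM to 18.9 and 21.003 CPM (0.60 ± 0.09, adjusted p = 4.96e-06), and Plk2 stood at 724 and 742 CPM (0.46 ± 0.03, adjusted p = 1.03e-16). Pvt1 now stood above its untreated level, at 316 and 325 CPM (0.33 ± 0.03, adjusted p = 4.3e-10). Tnfrsf10b rose from 36.9 and 36.6 CPM to 44.1 and 42.9 CPM (0.24 ± 0.05, adjusted p = 0.0015), and Trp53 stood at 201 and 205 CPM (0.15 ± 0.03, adjusted p = 0.000597). Polk was lower (−0.27 ± 0.08), a call that was lost in DESeq2's Wald test and without each of the 4 libraries. Bbc3 (0.23 ± 0.13) and Sesn2 (−0.01 ± 0.10) were no longer called. Within a line both times are read against the same untreated libraries.

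**Figure D4:**
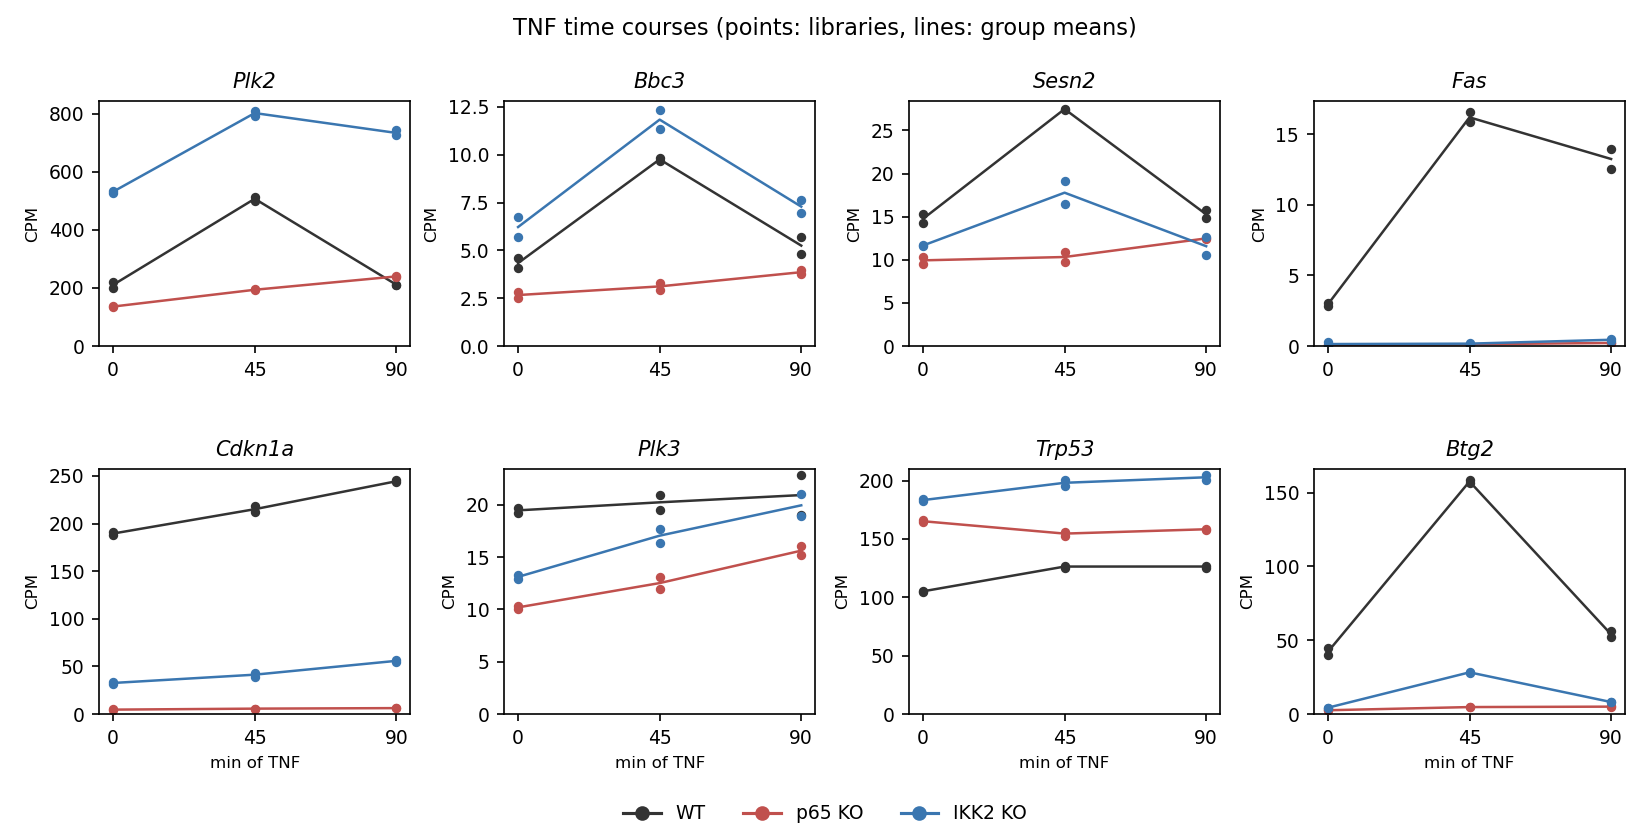
CPM of TNF-responsive members by minutes of TNF (0, 45 and 90) in WT, p65 KO and IKK2 KO, with points for libraries and lines through group means; Btg2, from the list of other p53 targets, is shown beside them. In WT Plk2 peaks at 45 min (513 and 500.3 CPM) and is back at 211 CPM at 90 min, while in p65 KO it climbs through 90 min to 241 and 239 CPM.

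Whether a line responded differently from WT was tested as a difference of log2 changes, in 4 tests that share the WT libraries. A negative difference means a lower log2 change in the knock-out line, be it a smaller rise or a fall. At least 1 of them called 12 of the 32 members, beside 12.4% of all genes. At 45 min 4 members responded less in p65 KO than in WT and 28 were not called, beside 3.47% of all genes with a higher and 3.61% with a lower response. These were Bbc3 (−0.95 ± 0.21, adjusted p = 0.00169), Sesn2 (−0.86 ± 0.13, adjusted p = 2.04e-06), Plk2 (−0.75 ± 0.04, adjusted p = 1.45e-17) and Trp53 (−0.36 ± 0.04, adjusted p = 2.24e-08). All 4 were kept in each of the other fits. Mdm2, which rose in both lines, did not differ past the threshold (0.06 ± 0.06). At 90 min 3 members had a positive difference and 2 a negative one in p65 KO, beside 1.92% and 3.47% of all genes. The sign for Plk2 had turned (0.82 ± 0.04, adjusted p = 3.31e-18), with Plk2 at its untreated level in WT at 90 min and above it in p65 KO. Trp53 remained lower (−0.33 ± 0.04, adjusted p = 2.9e-07), and Mdm2, Plk3 and Ephx1 were not kept in every fit. The negative Ephx1 difference went with a fall in p65 KO (−0.33 against untreated). The count of 5 calls was 2 in DESeq2's Wald test and 3 without untreated WT library b, WT 90 min library b or p65 KO 90 min library b.

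In IKK2 KO 5 members had a negative difference from WT at 45 min and 27 were not called. Over all genes 2.05% had a positive and 2.82% a negative difference. Plk2 (−0.67 ± 0.04, adjusted p = 5.83e-17), Aen (−0.59 ± 0.08, adjusted p = 5.64e-07) and Mdm2 (−0.25 ± 0.05, adjusted p = 0.00122) were kept in each of the other fits, and Tnfrsf10b and Trp53 were not. Aen fell in IKK2 KO (−0.46 against untreated), while its small rise in WT (0.12) was not kept in every fit. Bbc3 (−0.24 ± 0.17, adjusted p = 0.619) and Sesn2 (−0.30 ± 0.12, adjusted p = 0.217) were not called different from WT. At 90 min 4 members had a positive difference and 1 a negative one, beside 0.833% and 1.52% of all genes. Plk2 (0.47 ± 0.04, adjusted p = 3.72e-11), Cdkn1a (0.41 ± 0.06, adjusted p = 1.28e-05) and Pvt1 (0.35 ± 0.07, adjusted p = 0.000792) had a larger log2 change than in WT in every fit, while Plk3 and Polk were lost in some. In CPM Cdkn1a went from 191 and 188 to 243 and 246 in WT, and from 33.3 and 31.9 to 54.8 and 56.8 in IKK2 KO. The negative Polk difference went with a fall in IKK2 KO (−0.27 against untreated), a call also lost in some fits. The count of 5 calls was 3 in DESeq2's Wald test and 3 without WT 90 min library a. The Fas response could not be compared between lines with any precision, since Fas had 2 to 6 counts per library in p65 KO and 0 to 10 in IKK2 KO. Its differences at 45 min were −1.86 ± 1.01 in p65 KO and −2.26 ± 0.93 in IKK2 KO, and neither was called.

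Other genes of the pathway were read from lists of upstream regulators, further targets and genes repressed through p21. Of 30 further p53 targets tested, 23 were lower, 3 higher and 4 not called in untreated p65 KO against WT (median −0.85), and 22, 6 and 2 in IKK2 KO (median −0.64), beside 41.1% of all genes lower and 39.8% higher in p65 KO and 38.4% and 35.9% in IKK2 KO. Igfbp3, Trp53cor1 and Ltbp2 of this list had at most 0, 2 and 10 counts in any knock-out library. They passed the filter through WT alone, so they could only come out lower, and the medians include them. Btg2, an antiproliferative gene, was at 44.7 and 39.7 CPM in WT, 2.62 and 2.47 CPM in p65 KO and 4.21 and 4.33 CPM in IKK2 KO. Psrc1 was at 43.6 and 43.8 CPM in WT, 3.74 and 3.47 CPM in p65 KO and 3.34 and 2.85 CPM in IKK2 KO. Cd80, the T cell costimulator gene, was at 49.4 and 46.3 CPM in WT, at most 0.593 CPM in untreated p65 KO and at 0 counts in untreated IKK2 KO. Trp53i11 went the other way in IKK2 KO, at 0.164 and 0.203 CPM in WT and 4.27 and 4.39 CPM in IKK2 KO (4.53 ± 0.33), with 0 counts in untreated p65 KO. It had at most 4 counts in any WT library, so it passed the filter through IKK2 KO alone and had to be higher there. With 45 min of TNF 7 of these 30 rose and 3 fell in WT, 2 rose in p65 KO, and 4 rose and 3 fell in IKK2 KO. Over all genes 5.73% rose and 6.45% fell in WT, 1.17% and 0.49% in p65 KO, and 3.33% and 5.43% in IKK2 KO. Btg2 responded in every line, by 1.89 ± 0.04 in WT, 0.88 ± 0.16 in p65 KO and 2.72 ± 0.10 in IKK2 KO.

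Of 23 upstream regulators and partners of p53 tested, 13 were higher, 7 lower and 3 not called in untreated p65 KO against WT, and 13, 9 and 1 in IKK2 KO. Over all genes the shares were 39.8% higher and 41.1% lower in p65 KO, and 35.9% and 38.4% in IKK2 KO, so that calls in either direction were common and the 9 of 23 lower in IKK2 KO lay near the share of all genes. Trp63, a gene of the p53 family, was at 4.84 and 4.16 CPM in WT, 0.291 and 0.365 CPM in p65 KO and at 0 counts in untreated IKK2 KO. It had at most 8 counts in any knock-out library, so it passed the filter through WT alone and had to be lower there. Cdkn2a, which encodes p16 and the Mdm2 inhibitor Arf, was at 6.20 and 5.63 CPM in WT, 62.3 and 66.2 CPM in p65 KO (3.43 ± 0.08) and 4.58 and 4.33 CPM in IKK2 KO. Mdm4, the gene of a p53 inhibitor related to Mdm2, was at 111 and 115 CPM in WT, 39.2 and 39.5 CPM in p65 KO and 81.8 and 83.6 CPM in IKK2 KO. Hipk2, a kinase gene whose product acts on p53, was at 41.5 and 44.0 CPM in WT, 195 and 191 CPM in p65 KO and 116 and 110.3 CPM in IKK2 KO. Counts over the whole Cdkn2a gene do not separate its p16 and Arf transcripts. Of 17 genes repressed through p21 and the DREAM complex, 15 were higher, 1 lower and 1 not called in p65 KO (median 0.73), and 13, 2 and 2 in IKK2 KO (median 0.40), to be read beside the same shares of all genes. Mybl2 went from 36.2 and 37.7 CPM in WT to 128 and 130.2 CPM in p65 KO and 52.9 and 55.6 CPM in IKK2 KO. These are genes of dividing cells, and the sources used here do not give the growth rates of the lines.

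The genes most like Cdkn1a across the 9 groups were found by Pearson's r of log2 CPM means among 10153 genes of at least 2 CPM in every group. They were Rtn4 (0.998), Mettl17 (0.997), Celf2 (0.996), Abca7 (0.996) and Rasal2 (0.995). Among the members, Ptpn14 (0.988) ranked at 67, Polk (0.947) at 565, Apaf1 (0.946) at 590 and Mdm2 (0.945) at 599. Xpc (−0.95) and Tigar (−0.94) ran opposite, and Trp53 had an r of −0.50. The 9 means share 3 lines, so these values mostly describe the order of the lines and are descriptions alone.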

How the data were processed

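The deposited table holds expected counts per gene, which the authors made with FastQC 0.11.8, Trimmomatic, HISAT2, Subread 1.6.2 (featureCounts) and edgeR 3.26.4 on GRCm38, per the submitters' processing notes. Libraries came from a directional kit and paired ends of 76 bases, per the labels' protocols. How the counting treated strand and reads with more than 1 match, and its annotation, are not stated in the sources used here. Of the non-zero values 31.8% were fractional, and all were rounded. GENCODE M21 gave positions and exon lengths, and 10 members share exonic bases with another gene (Bax 12.2% and Ddb2 23.8% of their own).

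Genes passing filterByExpr (16322, losing 0.0601% of counts) were scaled by TMM. The main test was edgeR's robust quasi-likelihood F-test (version 4.0.16, R 4.3.3), fitted to all 18 libraries with a coefficient for each of the 9 groups, and adjusted by Benjamini-Hochberg within each of 14 comparisons at 0.05. Differences of response were contrasts of contrasts. With 0 counts a fold was bounded from 3 counts over the group (counting error alone). Values by library were given for Trp53, Mdm2, Cdkn1a and up to 6 members per comparison with the largest called change, at least 2 CPM in the higher group and no overlap, and up to 4 genes per other list by the same rule. Other members with values by library, such as Ccng1 and Tigar, and some genes of other lists were added after their values were seen. Alternatives were RLE size factors in edgeR, the Wald test of DESeq2 1.42.0, no filter, and each library left out. The members and lists were chosen with earlier results of these data known. The letters a and b name libraries and pair nothing.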

Additional observations from a re-analysis of the deposited data

Results flagged for a closer look

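The TNF response of 12 of the 32 genes differed between a knock-out line and WT in at least 1 of 4 tests of the difference of log2 changes (edgeR's quasi-likelihood test, Benjamini-Hochberg adjusted over all genes), beside 12.4% of all 16322 genes. These tests share the WT libraries, so they are not independent of each other. At 45 min the response was smaller in p65 KO for Trp53 (−0.36), Plk2 (−0.75), Bbc3 (−0.95) and Sesn2 (−0.86). At 90 min the p65 KO differences were −0.33 for Trp53, −0.37 for Ephx1, 0.20 for Mdm2, 0.82 for Plk2 and 0.51 for Plk3. Ephx1 was not called in WT at 90 min and fell in p65 KO (−0.33), a call not kept in every fit. In IKK2 KO against WT at 45 min the differences were −0.15 for Trp53, −0.25 for Mdm2, −0.67 for Plk2, −0.59 for Aen and −0.30 for Tnfrsf10b. At 90 min in IKK2 KO they were 0.41 for Cdkn1a, 0.47 for Plk2, 0.50 for Plk3, −0.41 for Polk and 0.35 for Pvt1.

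Plk2 was the 1 gene called in all 4 tests, with a smaller response in both knock-out lines at 45 min and a larger one at 90 min. Its 4 calls were kept in DESeq2's Wald test and without each library in turn. Of the 19 calls, 7 were lost in at least 1 other fit. They were Mdm2 (without untreated WT b, WT 90 min b, untreated p65 KO a or p65 KO 90 min b), Plk3 (without WT 90 min a) and Ephx1 (without untreated WT b, WT 90 min b or any p65 KO library compared) for p65 KO at 90 min. For IKK2 KO they were Trp53 (without either untreated WT library, WT 45 min b, either untreated IKK2 KO library or IKK2 KO 45 min a) and Tnfrsf10b at 45 min. At 90 min they were Plk3 (without WT 90 min a, untreated IKK2 KO a or IKK2 KO 90 min b) and Polk (without WT 90 min a or untreated IKK2 KO a). All 7 were lost in DESeq2's Wald test.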

How the results depend on the processing

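No paired analysis was possible because the columns of the deposited table name the group and a library code that the labels do not give, so the libraries carry no replicate number. Of 165 calls of the 32 genes over 14 comparisons, 130 were kept in every other fit run and 35 were lost in at least 1, of which 30 in DESeq2's Wald test, 3 with RLE, 5 without a filter and 34 without some library. In no fit did a called value change its sign. Baseline counts moved little (32 called in p65 KO, 31 to 32 without a library, and 29 in IKK2 KO, 28 to 29). The count of genes called among the 32 moved by over 1.5 times in 6 comparisons. For TNF at 90 min in p65 KO it was 8, with 3 in DESeq2's Wald test and 4 to 5 without a library. For 45 min in IKK2 KO it was 10, with 6 in DESeq2's Wald test and 6 to 9 without a library. For 90 against 45 min in WT it was 11, with 7 to 10 without a library. For the difference at 90 min in p65 KO it was 5, with 2 in DESeq2's Wald test and 3 to 5 without a library. For the difference in IKK2 KO it was 5 at 45 min, with 3 in DESeq2's Wald test, and 5 at 90 min, with 3 in DESeq2's Wald test and 3 to 6 without a library. The causes were not tested. A library left out leaves its group with 1 library, which is then assumed to vary like the other groups.

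Over all genes DESeq2's Wald test called fewer genes in each TNF comparison: 966 instead of 1988 in WT at 45 min, 715 instead of 1521 at 90 min, 139 instead of 271 and 360 instead of 1058 in p65 KO, 697 instead of 1430 and 347 instead of 732 in IKK2 KO, and 1087 instead of 2334 for 90 against 45 min in WT. For the differences it called 593 instead of 1156 and 431 instead of 880 in p65 KO, and 408 instead of 794 and 175 instead of 384 in IKK2 KO. Left-out libraries took the p65 KO counts to 97 at 45 min and 452 at 90 min, the IKK2 KO counts to 901 and 391, and the p65 KO difference at 90 min to 581. At 90 min in IKK2 KO 75% of the genes called were higher, and 88.8% in DESeq2's Wald test. Depth limits Fas, Perp, Gdf15 and Dcxr, which had under 10 counts in both libraries of at least 1 knock-out group, so that their TNF responses there could not be read.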
